A study of Mus musculus with 4 samples.

Results

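The levels of 10 mouse genes of insulin-like growth factor (IGF) and insulin signalling were compared in gastrocnemius muscle, the main calf muscle: the ligand Igf1, the receptors Igf1r and Insr, the receptor adaptors Irs1 and Irs2, and the binding protein genes Igfbp1, Igfbp3, Igfbp4, Igfbp5 and Igfbp6. The genes were chosen by symbol, and each of the 10 matched 1 of the 23282 gene rows of the deposited libraries. All groups were CDF1 mice, an F1 hybrid strain, labelled as postnatal day 28, which by the methods was the age at purchase of these male animals. The design crossed high-intensity aerobic exercise on a treadmill (E) with cancer (T), raised by injecting CT26 cells, a murine colorectal cancer line, into the tail vein. Mice without a tumor formed the normal control group, E(-)T(-), or with exercise the normal exercise group, E(+)T(-). Tumor-bearing mice formed the cancer control group, E(-)T(+), or with exercise the cancer exercise group, E(+)T(+). Each group gave 1 library. Each group had 10 mice, of which 1, described as representative, gave the muscle for sequencing.

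Libraries were made from the 3′ ends of polyadenylated RNA (QuantSeq), so that a read count stands for transcripts and does not scale with gene length. They held 10647791 to 13225567 reads. The 8 muscle fibre markers (among them Acta1, Ckm and Myh4) had reads in every library, with a summed normalized read count of 789683 to 1.20e+06, as the tissue label states. A gene is called higher or lower here where its normalized read count differed at least 2-fold, after adding 1 to each count, and reached 4 in at least 1 of the 2 libraries. Intervals are, unless named otherwise, 95% Clopper-Pearson intervals of the read counts on the log2 scale and cover counting error only. With 1 library per group no spread between mice can be had, so no test was made and every difference below is one between libraries.

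IGF-1 is a growth factor made by the liver and, locally, by muscle and connective tissue, where growth hormone and load raise its expression. IGF-1 and insulin bind the related receptors encoded by Igf1r and Insr, which recruit the adaptors IRS-1 and IRS-2 and pass the signal to PI3K and AKT, to protein synthesis through mTORC1, and to the FoxO transcription factors, which AKT keeps out of the nucleus. IGF binding proteins hold most IGF outside cells, and proteases such as PAPP-A cut some of them. Igfbp1 and Irs2 are known as genes that insulin represses in the liver through FoxO factors.

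The promoters of Igfbp1, Irs2 and Irs1 are shown because they hold the core of the insulin response element, CAAAACA, which FoxO factors bind in the Igfbp1 promoter. All 3 were also called between cancer control and normal control, Igfbp1 and Irs2 as higher and Irs1 as lower. So were Igf1, Igf1r, Igfbp3 and Igfbp5, whose promoter windows held no such core. In that comparison 20.9% of all genes tested were called higher and 24.2% lower. The windows are RefSeq sequences of GRCm38.p6, from 250 bases before the start of the gene to 50 bases after it, on the strand of the gene. They lie at chr11:7197537-7197836 (plus strand) for Igfbp1, chr8:11008880-11009179 (minus strand) for Irs2 and chr1:82291390-82291689 (minus strand) for Irs1. Capitals mark the motif, as CAAAACA on the strand of the gene or as TGTTTTG where it stands on the opposite strand.
Igfbp1: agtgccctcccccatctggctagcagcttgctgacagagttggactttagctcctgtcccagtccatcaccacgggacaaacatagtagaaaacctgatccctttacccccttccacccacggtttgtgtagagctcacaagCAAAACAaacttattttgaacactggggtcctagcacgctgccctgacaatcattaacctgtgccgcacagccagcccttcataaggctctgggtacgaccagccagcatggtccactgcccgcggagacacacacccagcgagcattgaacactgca
Irs2: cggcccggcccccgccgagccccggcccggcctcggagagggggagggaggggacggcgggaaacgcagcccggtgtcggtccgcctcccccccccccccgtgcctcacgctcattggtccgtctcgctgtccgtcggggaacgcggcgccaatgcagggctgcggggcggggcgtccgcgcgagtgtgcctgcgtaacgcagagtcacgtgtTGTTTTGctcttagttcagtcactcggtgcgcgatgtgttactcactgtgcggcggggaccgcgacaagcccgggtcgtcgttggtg
Irs1: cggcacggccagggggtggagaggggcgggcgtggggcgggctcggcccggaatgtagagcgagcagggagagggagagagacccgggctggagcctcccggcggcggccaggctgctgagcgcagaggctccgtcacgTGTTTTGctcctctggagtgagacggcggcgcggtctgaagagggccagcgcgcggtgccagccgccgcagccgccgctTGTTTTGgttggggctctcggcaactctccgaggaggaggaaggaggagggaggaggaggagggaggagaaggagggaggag

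The motif began 108 bases before the RefSeq start in Igfbp1, 37 bases before it in Irs2, and 111 and 32 bases before it in Irs1. The RefSeq start of Irs2 lies 471 bases upstream of the GENCODE start that bounds the gene position given for it here, so that the Irs2 window is upstream of the GENCODE gene. For Irs1 the RefSeq start lies 23 bases upstream, and for Igfbp1 5 bases downstream. Of the 10 members 9 had a window in the table, all but Insr, and 3 of these 9 held the motif on either strand. It was present in 6.28% of all 32851 windows of this length. A FoxO core written TGTTTAC (3.65% of windows) and the STAT5 pattern TTCNNNGAA (8.30%), both searched on both strands, had no match in the 9 windows. No binding was measured, and the motif describes these letters only.

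Cancer without exercise, that is cancer control over normal control, called 8 of the 10 members. Igf1r, Insr, Irs2, Igfbp1 and Igfbp3 were higher (5 members), against 20.9% of the 14818 genes tested. Igf1, Irs1 and Igfbp5 were lower (3 members), against 24.2%. The median log2 fold change of the members was 0.77 and that of all genes -0.04, with members spread from -4.64 to 8.32.

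Exercise gave fewer calls. In mice without a tumor, Igf1 was the single member called, as lower, of 9 tested, against 12.1% of 14518 genes called lower, and 0 members were called higher against 9.44%. In tumor-bearing mice, Irs2, Igfbp1 and Igfbp3 were lower (3 of 10), against 15.1% of 14491 genes, and 0 were higher against 15.6%. All 3 of these had been higher in cancer control than in normal control. This comparison and that of cancer control with normal control share the cancer control library, so a value particular to it moves both in opposite directions. The median of the members was -0.44 with exercise without a tumor and -0.42 with a tumor, against -0.01 and 0.01 over all genes.

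Among exercised mice, the tumor (cancer exercise over normal exercise) called 4 members higher, Insr, Irs2, Igfbp1 and Igfbp3, against 13.9% of 14470 genes, and 1 lower, Igfbp5, against 16.3%. This pair shares no library with cancer control over normal control. The 5 members had the same direction in both pairs, Igfbp1 from 5 reads in cancer exercise. Igf1, Igf1r and Irs1 were called in the mice without exercise and not in the exercised mice, where Irs1 was just short of 2-fold (log2 -0.94). The share of all genes called in both pairs, or in 1 of them, was not computed. The difference between the pairs was not tested.

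**Figure D1:**
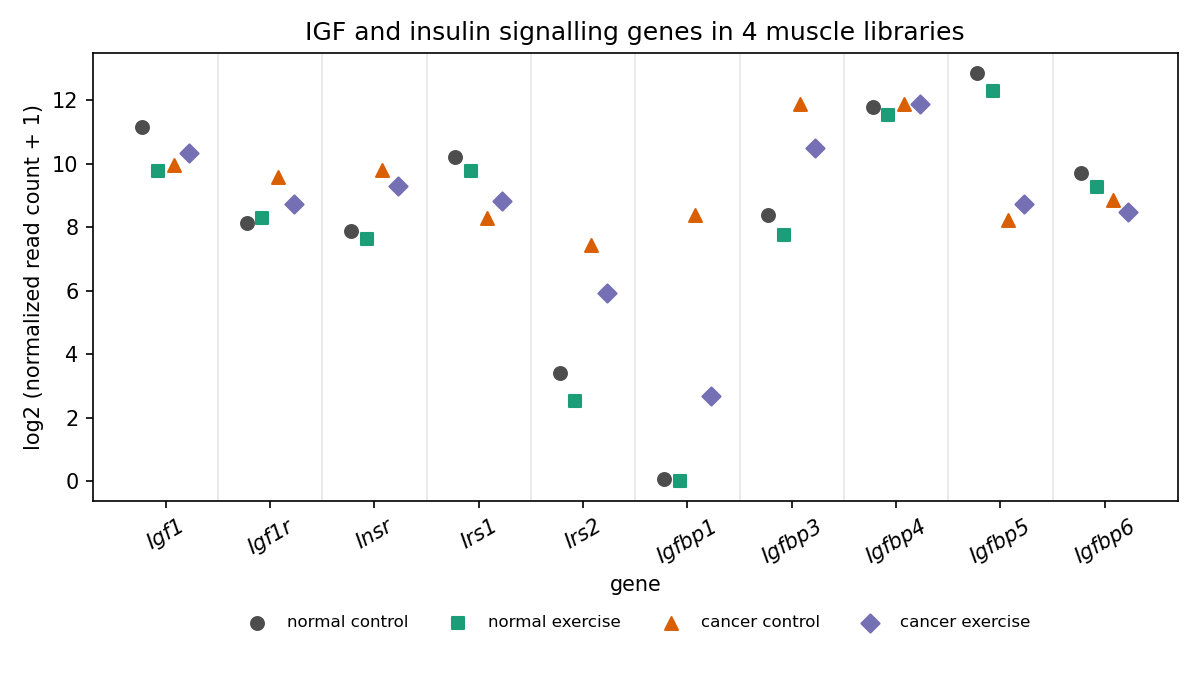
Levels of the 10 members in the 4 libraries, as log2 of the normalized read count plus 1, with 1 point per library. Igfbp4 spans 0.35 on this scale, and Igfbp1 spans 8.38 because it had no reads in the libraries without a tumor.

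**Figure D2:**
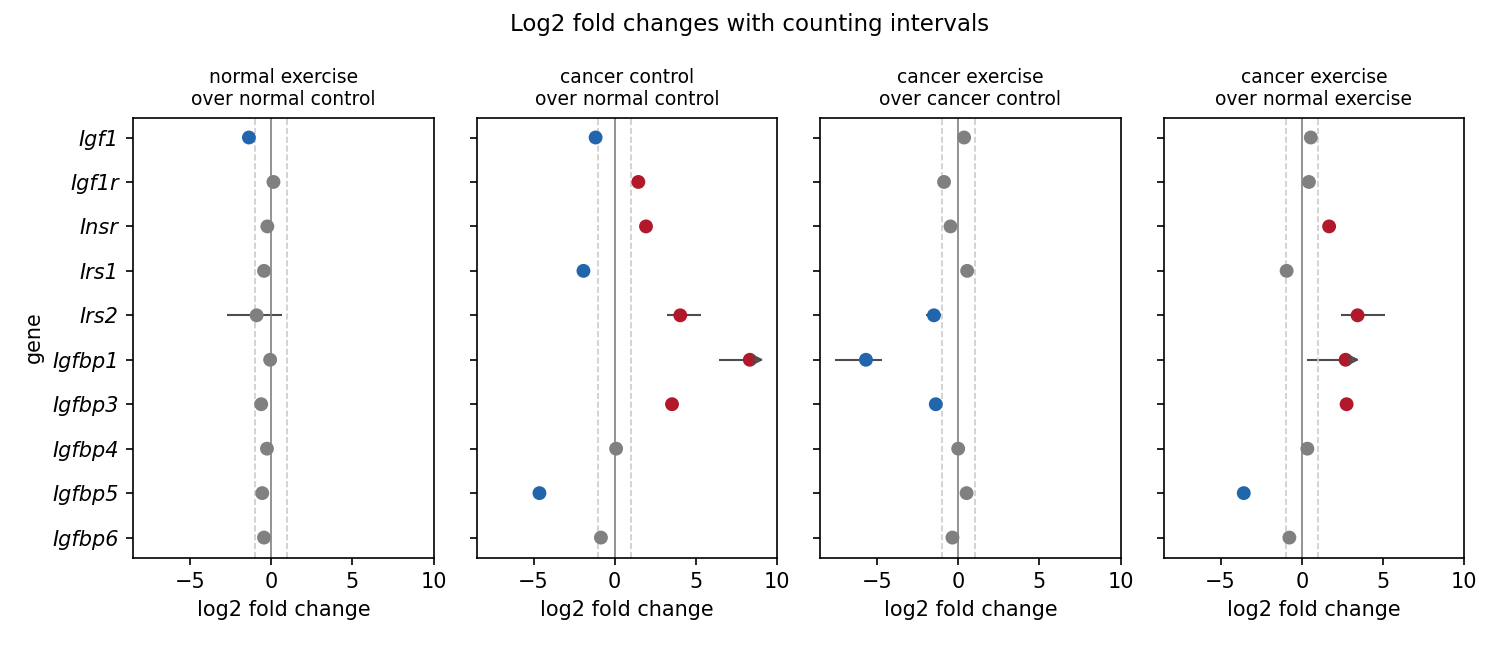
Log2 fold changes of the members in the 4 comparisons named above each panel, with 95% counting intervals as horizontal lines and dashed lines at 2-fold. Red points are members called higher, blue points members called lower and grey points members not called; an arrow marks an interval with no upper end because the denominator library had 0 reads.

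The ligand gene Igf1 (chromosome 10, 87858265 to 87937042 in GRCm38, plus strand) reached 2269.8 normalized reads in normal control against 876 in normal exercise, and 1003 in cancer control against 1287 in cancer exercise. Normal control stood above the other three libraries, and normal exercise was the lowest. Igf1 was 2.59-fold lower with exercise in mice without a tumor (log2 -1.37, interval -1.48 to -1.27). It was 2.26-fold lower with the tumor in mice without exercise (log2 -1.18, interval -1.29 to -1.07). These values share the normal control library. With exercise in tumor-bearing mice the log2 fold change was 0.36 (0.24 to 0.49), and with the tumor in exercised mice it was 0.55 (0.43 to 0.67), neither of which reached 2-fold. The exercise effect was thus 1.73 higher on the log2 scale in tumor-bearing mice (counting interval 1.57 to 1.89, by a normal approximation). This difference between 4 single libraries was not tested. Igf2, the other IGF ligand, had 409, 272, 293 and 364 normalized reads in the same order of libraries (those without a tumor, then those with one, control before exercise in each), and was not called in any comparison. The insulin genes Ins1 and Ins2 had 0 reads in every library.

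Of the 6 genes of the growth hormone axis, which relays growth hormone through JAK2 and STAT5 to the Igf1 gene, Cish and Socs2 were called lower with exercise in mice without a tumor (2 of 6, against 12.1% of all genes) and none higher. Both encode feedback inhibitors that STAT5 induces. Cish had 1341, 50.1, 296 and 523 normalized reads, so that it was lowest in normal exercise and highest in normal control, the same ends as Igf1. Its log2 fold change was -4.72 (-5.13 to -4.37) with exercise and -2.18 (-2.38 to -1.99) with the tumor. Socs2 had 1032, 127, 956 and 439 normalized reads. It fell with exercise by 3.01 on the log2 scale without a tumor (interval -3.27 to -2.77) and by 1.12 with a tumor (-1.30 to -0.95), while its value with the tumor alone was -0.11 (-0.24 to 0.02). With the tumor in exercised mice Socs2 was called higher (1.78, interval 1.52 to 2.06). Ghr, the growth hormone receptor gene, had 1527 and 1508 normalized reads in normal control and normal exercise, and 588 and 657 in cancer control and cancer exercise. It therefore fell with the tumor, by 1.38 without and 1.20 with exercise, and not with exercise, where the log2 values were -0.02 and 0.16. Jak2, Stat5a and Stat5b were not called in any comparison. Over the 6 genes, the tumor without exercise gave 0 higher and 2 lower (20.9% and 24.2% of all genes). Exercise in tumor-bearing mice gave 0 higher and 1 lower (15.6% and 15.1%). The tumor in exercised mice gave 2 higher and 1 lower (13.9% and 16.3%).

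Igf1 is also expressed by cells other than muscle fibres, and the lists of their markers moved between the libraries. The 10 fibroblast markers (among them Pdgfra, Dcn and Col3a1) had reads in every library and summed to 114452 normalized reads in normal control against 74526 in normal exercise, and 48714 in cancer control against 55275 in cancer exercise. Of these, 5 of 10 were lower with exercise in mice without a tumor, against 12.1% of all genes, and 7 of 10 lower with the tumor without exercise, against 24.2%. The 6 fat cell markers summed to 16192, 5936, 4596 and 10314, with Lep at 0 reads in both tumor libraries. The summed levels of both lists, like Igf1, were highest in normal control, but were lowest in cancer control and not in normal exercise. This did not hold for the most abundant marker of either list. Dcn gave the largest part of the fibroblast sums and was lowest in cancer exercise (57888, 37431, 35363 and 34756). Cfd gave that of the fat cell sums and was lowest in normal exercise (12085, 3642, 3739 and 8129). The 12 hepatocyte markers, from the main source of circulating IGF-1, summed to 2108, 219, 2706 and 1255, lowest in normal exercise like Igf1 but highest in cancer control. Cyp2e1, which fat also expresses, gave 1503, 67.1, 418 and 1022 of these, and without it the sums were 604, 152, 2289 and 232. With exercise in mice without a tumor 9 of the 10 tested were lower, against 12.1% of all genes. In a bulk sample, fewer cells of a type and less RNA per cell cannot be told apart, and the part of these lists in the Igf1 values was not tested.

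The genes with the pattern most like that of Igf1, by Euclidean distance of log2 values centred on their mean over the 4 libraries, were Cul7 (0.12), Stk10 (0.14), Ifi204 (0.16), Mgat3 (0.16) and Zfp229 (0.16). The distance is a description over 4 points.

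Both receptor genes were higher in the cancer control library. Igf1r, the IGF-1 receptor (chromosome 7, 67952827 to 68233668, plus strand), had 282 normalized reads in normal control against 310.5 in normal exercise, and 774 in cancer control against 421 in cancer exercise. It rose 2.74-fold with the tumor in mice without exercise (log2 1.45, interval 1.25 to 1.67). With exercise in tumor-bearing mice its log2 fold change was -0.88 (-1.06 to -0.70), short of 2-fold, and normal exercise did not differ from normal control beyond counting error (0.14, interval -0.09 to 0.37). In exercised mice the tumor gave 0.44 (0.23 to 0.65).

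Insr, the insulin receptor (chromosome 8, 3122061 to 3279617, minus strand), had 233, 198, 888 and 637 normalized reads in the same order. Unlike Igf1r it was called higher with the tumor in both pairs of libraries, 3.80-fold without exercise (log2 1.93, interval 1.71 to 2.15) and 3.21-fold with it (1.68, interval 1.47 to 1.91). Normal exercise again lay within counting error of normal control (-0.24, interval -0.50 to 0.03). The reads of Insr per read of Igf1r were 0.83 in normal control (interval 0.69 to 0.99) and 0.64 in normal exercise (0.54 to 0.75), and 1.15 (1.04 to 1.27) and 1.51 (1.33 to 1.72) in cancer control and cancer exercise. Igf1r was thus the more abundant transcript of the pair without a tumor, and Insr with one. Igf2r, which clears IGF-II and does not signal through IRS proteins, had 359, 311, 309 and 323 normalized reads and was not called. The insulin receptor-related gene Insrr had 0 reads in every library.

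The adaptor genes moved in opposite directions with the tumor in mice without exercise. IRS-1 is the main insulin receptor adaptor of muscle, and IRS-2 that of several other tissues, the liver included. Irs1 (chromosome 1, 82233101 to 82291416, minus strand) had 1183 normalized reads in normal control against 871 in normal exercise, and 311 in cancer control against 455 in cancer exercise. It was 3.80-fold lower with the tumor in mice without exercise (log2 -1.93, interval -2.12 to -1.74). In exercised mice the tumor gave -0.94 (-1.10 to -0.77), just short of 2-fold. With exercise the log2 fold change was -0.44 (-0.57 to -0.32) without a tumor and 0.55 (0.33 to 0.77) with one. A gene of the opposite strand, Gm9747, is annotated over the 3′ end of Irs1 and was not analysed here. Whether reads were counted by strand is not stated, so reads of the pair cannot be told apart. Genes of the opposite strand also overlap Igf1, Insr and Irs2, and the one over Irs2, 9530052E02Rik, had 0, 6, 0 and 16 reads of its own.

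Irs2 (chromosome 8, 10984681 to 11008458, minus strand) rested on 9 reads in normal control against 6 in normal exercise, and 162 in cancer control against 56 in cancer exercise, or 9.63, 4.70, 173 and 60.6 normalized reads. The libraries without a tumor did not differ beyond counting error (-0.90, interval -2.75 to 0.68). Irs2 was higher with the tumor in both pairs, 16.4-fold without exercise (log2 4.04, interval 3.22 to 5.33) and 10.8-fold with it (3.44, interval 2.43 to 5.15). With exercise in tumor-bearing mice it was 2.83-fold lower (log2 -1.50, interval -1.98 to -1.07). Irs1 reads outnumbered those of Irs2 by 123 to 1 in normal control (interval 64.9 to 271) and 185 to 1 in normal exercise (82.0 to 489). The ratio was 1.79 in cancer control (1.47 to 2.18) and 7.50 in cancer exercise (5.66 to 10.1). Irs2 thus went from a trace of the adaptor transcripts to a level near that of Irs1 in cancer control.

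Other receptor adaptors and brakes, 13 genes, were called as follows. With exercise without a tumor 0 were higher and 2 lower (9.44% and 12.1% of all genes). With the tumor without exercise 2 were higher and 2 lower (20.9% and 24.2%). In tumor-bearing mice exercise gave 0 of 12 tested higher and 3 lower (15.6% and 15.1%), and with the tumor in exercised mice 1 was higher and 3 lower (13.9% and 16.3%). Socs3, a cytokine-induced inhibitor that also binds the insulin receptor, had 161 and 164 normalized reads in normal control and normal exercise, and 859 and 945 in cancer control and cancer exercise. It rose by 2.41 and 2.52 on the log2 scale in the tumor pairs and was near 0 in the exercise pairs (0.03 and 0.14). Grb14, an inhibitory adaptor of the insulin receptor, was highest in normal control, with 196 normalized reads against 63.98, 36.5 and 29.3, and fell with exercise without a tumor (-1.60) and in both tumor pairs (-2.39 and -1.10). Trib3, a stress-induced protein reported to bind AKT, rose with the tumor without exercise (1.82) and fell with exercise in tumor-bearing mice (-1.94). Irs3, a further adaptor gene of rodents, fell in both tumor pairs (-2.24 and -2.61).

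The 5 binding protein genes differed most among themselves. With the tumor Igfbp5 was lower and Igfbp3 higher, Igfbp1 had reads with the tumor only, and Igfbp4 was not called. The reads of these 5 genes summed to 12133 normalized reads in normal control against 8856 in normal exercise, and 8699 in cancer control against 6030 in cancer exercise. Igfbp5 made up 61.0% of them in normal control and 57.0% in normal exercise, but 3.41% in cancer control and 7.02% in cancer exercise. Igfbp3 went from 2.73% and 2.43% to 44.0% and 24.3%. Igfbp4 made up 29.4%, 33.6%, 43.5% and 62.6%, and Igfbp6 5.32% to 6.93% in all libraries. Igfbp3 and Igfbp1 took up a larger share with the tumor and were themselves called higher. The share of Igfbp4 was larger with the tumor although its own level was not called in any comparison.

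**Figure D3:**
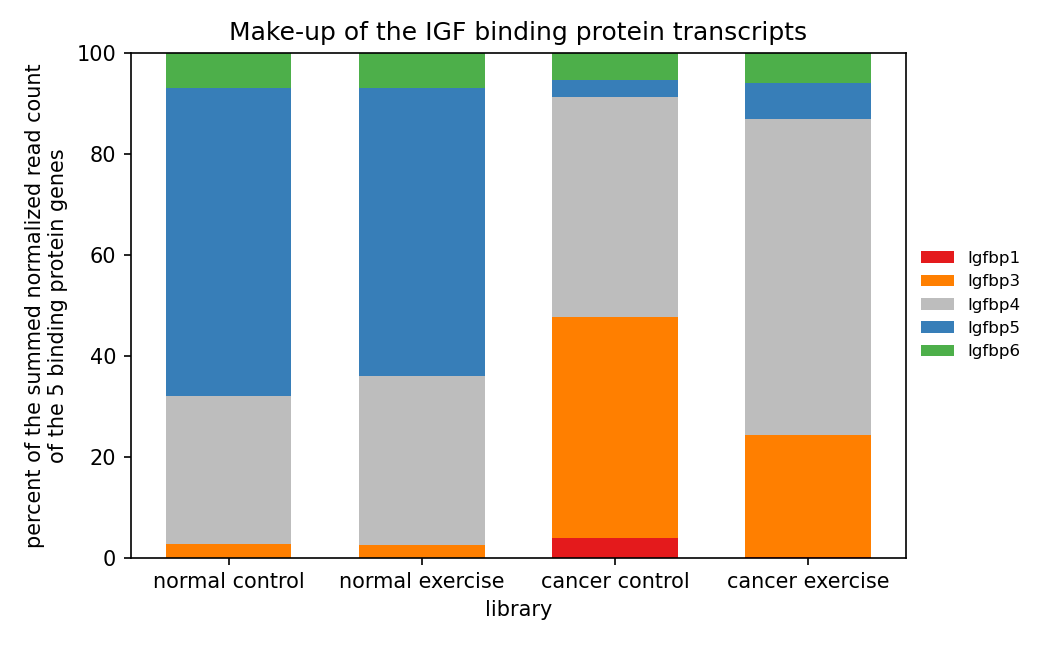
Composition of the summed normalized read count of the 5 binding protein genes in each library, in percent, with 1 stacked bar per library from 0 to 100%. Igfbp5 fills 61.0% and 57.0% of the bars without a tumor and 3.41% and 7.02% of those with a tumor, where Igfbp3 and Igfbp4 fill most of the bar.

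Igfbp5, the most abundant member in the mice without a tumor and a binding protein with a role in muscle differentiation (chromosome 1, 72857932 to 72874884, minus strand), had 7403 normalized reads in normal control against 5052 in normal exercise, and 297 in cancer control against 424 in cancer exercise. The libraries with a tumor lay far below those without. With the tumor it was 24.9-fold lower without exercise (log2 -4.64, interval -4.82 to -4.47) and 11.9-fold with exercise (-3.57, interval -3.73 to -3.43). With exercise it had a log2 fold change of -0.55 (-0.60 to -0.50) without a tumor and 0.51 (0.29 to 0.74) with one, neither 2-fold. Over the 4 libraries its log2 range of 4.64 was larger than that of 95.5% of the 13197 genes that reached 16 normalized reads in a library. The genes most like it by the same distance were Adrbk2 (0.31), Myb (0.40), Scg3 (0.42), Gdf11 (0.43) and Dnajb3 (0.46), all much less abundant.

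Markers of tendon and muscle stem cells were lower in cancer control than in normal control as well. The 7 tendon markers (among them Tnmd, Scx and Fmod) summed to 10172, 4857, 1515 and 4110 normalized reads in that same order. All 7 were called lower with the tumor without exercise (24.2% of all genes) and 5 of 7 with it (16.3%), and Comp and Kera had 0 reads in cancer control. Thbs4 gave 3714 of the 4110 normalized reads in cancer exercise, where it was not called against normal exercise (0.10), while Tnmd (-3.98) and Kera (-3.88) were lower there. The 5 satellite cell markers (among them Pax7 and Myod1) summed to 1659, 1070, 152 and 692 normalized reads. Chodl gave most of each sum, with 1284, 739, 122 and 445. Pax7 rested on 23, 27, 2 and 0 reads, and Calcr on 2, 6, 0 and 0. With the tumor without exercise 4 of 4 tested were lower, against 24.2% of all genes. With the tumor in exercised mice 2 of 5 were lower, Pax7 and Calcr, against 16.3%. There 1, Myf5, was higher (1.16), against 13.9%. The part of both lists in the Igfbp5 values was not tested.

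Igfbp3, which carries most circulating IGF (chromosome 11, 7206086 to 7213923, minus strand), had 331 normalized reads in normal control against 215 in normal exercise, and 3823 in cancer control against 1464 in cancer exercise. Both tumor libraries stood above both others. With the tumor it was 11.5-fold higher without exercise (log2 3.53, interval 3.36 to 3.70) and 6.77-fold with exercise (2.76, interval 2.57 to 2.96). With exercise it was 2.61-fold lower in tumor-bearing mice (log2 -1.38, interval -1.48 to -1.29), while in mice without a tumor the value was -0.62 (-0.86 to -0.38). Reads of Igfbp3 per read of Igfbp5 were 0.04 in both libraries without a tumor, against 12.9 in cancer control and 3.46 with exercise. The 8 endothelial markers, from cells that can express Igfbp3, summed to 3120, 4292, 3769 and 3841 normalized reads, all detected in every library. The 8 macrophage markers, also detected in every library, summed to 3918, 3771, 6433 and 6193. With the tumor without exercise 2 of 8 endothelial and 3 of 8 macrophage markers were higher, against 20.9% of all genes, and none lower, and their part in the Igfbp3 values was not tested.

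Igfbp1 (chromosome 11, 7197782 to 7202546, plus strand), a binding protein made chiefly by the liver and raised in fasting, had 311 reads in cancer control, 5 in cancer exercise and 0 in each library without a tumor. A count of 0 allows up to 3.19 normalized reads for normal control and 2.43 for normal exercise, taking 3 reads as the floor. Against that floor Igfbp1 was 104-fold higher in cancer control than in normal control, and 2.23-fold higher in cancer exercise than in normal exercise. The counting intervals had lower ends of 6.40 and 0.29 on the log2 scale, the latter short of 2-fold. The value in exercised mice came from 5 reads and was not called where a minimum of 16 normalized reads is asked for. Cancer exercise was 51.4-fold lower than cancer control (log2 -5.68, interval -7.58 to -4.70). Igfbp1 and Igfbp3 are neighbours whose 3′ ends face each other 3539 bases apart, and both were higher in cancer control than in any other library. The genes most like Igfbp1 were Mat1a (distance 1.63), E130012A19Rik (1.88), Mt4 (1.97), Bpifa1 (2.07) and Spink5 (2.09), which are not close on this scale.

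Since muscle is not the usual source of Igfbp1, the 12 hepatocyte markers were set beside it. With the tumor without exercise 9 were called higher, against 20.9% of all genes, and 1, Cyp2e1, lower. Exercised tumor-bearing mice had 11 lower than cancer control, against 15.1%, and 1, again Cyp2e1, higher. Their sum without Cyp2e1, which fat also expresses and which was set apart after its values were seen, was 604 normalized reads in normal control against 152 in normal exercise, and 2289 in cancer control against 232 in cancer exercise. The defining marker Alb had 351, 124, 555 and 71 reads. With the tumor without exercise Alb (log2 0.67) and Apoa2 (0.18) were not called. In normal control Alb had 351 reads and Igfbp1 had 0, and what this means for the source of Igfbp1 was not tested. Fga and Tat had no reads where there was no tumor (0 in either library), and 8 and 49 in cancer control. Of the 8 skin keratinocyte markers, 7 were called higher in cancer control than in normal control, against 20.9% of all genes, with sums of 200.2, 196, 783 and 87.0, and Krt5, Krt1, Flg2 and Krt15 had reads in cancer control only. Both lists thus had their largest sums in cancer control, the library with the most Igfbp1 reads. Which cells these reads came from cannot be told in a bulk sample, and the part of both lists in the Igfbp1 value was not tested.

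**Figure D4:**
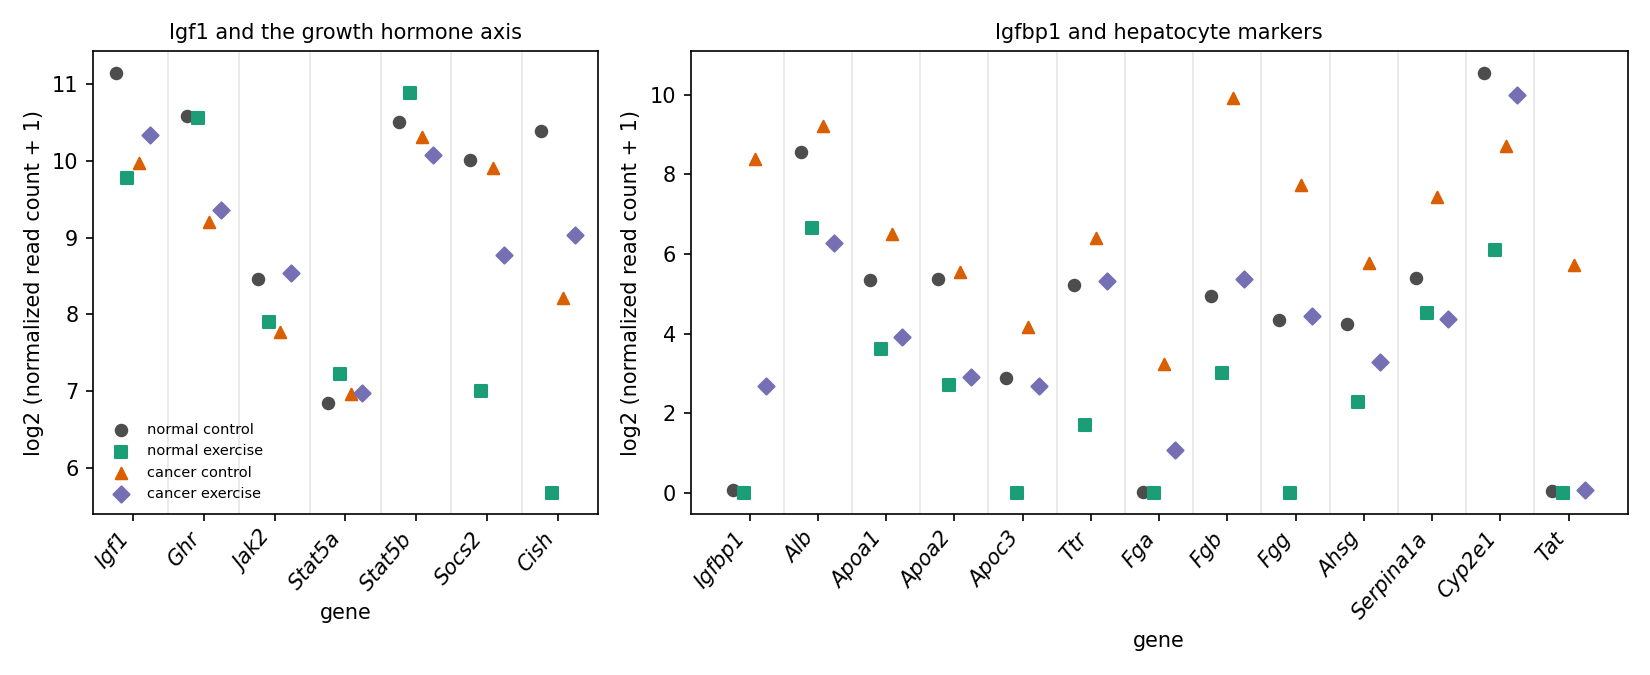
Left, Igf1 beside the 6 growth hormone axis genes, and right, Igfbp1 beside the 12 hepatocyte markers, as log2 of the normalized read count plus 1 with 1 point per library. Cish and Igf1 are both highest in normal control and lowest in normal exercise. In normal control Igfbp1 is at 0 reads and Alb at 351 reads.

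Igfbp4, an inhibitory binding protein that PAPP-A cuts (chromosome 11, 99041244 to 99054392, plus strand), had 3565 normalized reads in normal control against 2975 in normal exercise, and 3784 in cancer control against 3776 in cancer exercise. It was the most level member. Its log2 range of 0.35 was smaller than that of all but 5.27% of the genes reaching 16 normalized reads, whose median range was 1.18. The tumor libraries did not differ beyond counting error (log2 -0.003, interval -0.07 to 0.06). Igfbp6, which prefers IGF-II (chromosome 15, 102144362 to 102149511, plus strand), had 835, 614, 463 and 361 normalized reads, each below the one before, and was called in no comparison. Its log2 fold changes lay between -0.85 and -0.36.

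Of 6 genes of proteases that act on binding proteins and their inhibitors 4 were higher with the tumor without exercise (20.9% of all genes) and none lower. With the tumor in exercised mice 2 were higher and 1 lower (13.9% and 16.3%), and with exercise in tumor-bearing mice 2 were lower (15.1%) and none higher. With exercise in mice without a tumor 1 of 5 tested was higher and 2 were lower (9.44% and 12.1%). The proteases Htra1 and Htra3 were called in neither tumor pair, but Htra1 was lower with exercise without a tumor (-1.29, interval -1.58 to -1.02). Stc2, stanniocalcin 2, an inhibitor of PAPP-A, was at 0 reads in normal control and reached 2.28, 52.4 and 101 normalized reads in normal exercise, cancer control and cancer exercise. Stc1, the related inhibitor, had 24.5, 45.3, 271 and 60.7. Pappa, which encodes PAPP-A, had 45.8, 7.94, 105 and 102, and rose with the tumor in both pairs (log2 1.18 and 3.52). It also fell by 2.39 with exercise in mice without a tumor. Pappa2 rested on few reads, at 0, 13.8, 35.2 and 2.23 normalized reads. Igfals, which joins IGF and Igfbp3 in the circulating complex, had 24.4, 6.40, 0 and 8.68, with 0 reads in cancer control. Igfbp7, a more distant relative of the binding proteins, had 4216, 2909, 2820.0 and 4078 and was not called.

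Downstream of the receptors, 3 of 14 PI3K and AKT genes were higher and 1 lower with the tumor without exercise, against 20.9% and 24.2% of all genes, so that the higher calls were at that share. In each exercise comparison 1 was higher (9.44% without and 15.6% with a tumor) and none lower. With the tumor in exercised mice 4 were higher and 1 lower (13.9% and 16.3%). Akt1 moved most, with 1220.1 normalized reads in normal control against 3160 in normal exercise, and 7611 in cancer control against 7296 in cancer exercise. It rose by 1.37 with exercise without a tumor, and by 2.64 and 1.21 with the tumor without and with exercise. Pik3r1, a regulatory subunit of PI3K, was called only with the tumor in exercised mice, as higher (1.38). It was at 0.52 (0.39 to 0.65) with the tumor without exercise, and at -0.98 (-1.13 to -0.82) with exercise without a tumor. Pik3cb was called higher in both tumor pairs (1.31 and 1.25). Phlpp2, a phosphatase that acts on AKT, fell in both (-1.09 and -1.18).

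Of 16 genes of FoxO factors and mTORC1, 6 were higher and 3 lower with the tumor without exercise, against 20.9% and 24.2% of all genes. With the tumor in exercised mice 5 were higher and 1 lower (13.9% and 16.3%). In the exercise comparisons 0 of 15 were called without a tumor, and 1 higher and 3 lower with a tumor (15.6% and 15.1%). Ddit4, the stress-induced inhibitor of mTORC1, had 360 and 380 normalized reads in normal control and normal exercise, and 17486 and 7874 in cancer control and cancer exercise. Its log2 fold change was 5.60 and 4.37 in the tumor pairs and -1.15 (-1.19 to -1.11) with exercise under a tumor. Eif4ebp1, the translation repressor that mTORC1 phosphorylates, went from 1107 and 1188 to 13596 and 13891, and unlike Ddit4 was not called with exercise in tumor-bearing mice (0.03, interval -0.00 to 0.07). Foxo1 had 630, 513, 3278 and 1499 normalized reads. It rose with the tumor in both pairs (2.38 and 1.54) and was lower by exercise under a tumor (-1.13, interval -1.22 to -1.04). Foxo6 had 70.1, 52.0, 17.2 and 2.23 normalized reads and was lower in both tumor pairs, at -1.97 without exercise and -4.04 with it (interval -7.66 to -2.67).

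Of 9 genes of insulin-regulated glucose handling, none was called with exercise without a tumor, and 1 was higher and 1 lower with the tumor without exercise (20.9% and 24.2% of all genes). Slc2a4, the insulin-responsive glucose transporter GLUT4, stayed within 4251 to 6312 normalized reads and was not called. Slc2a1, the basal transporter GLUT1, had 140, 155, 571 and 221, and rose with the tumor without exercise (2.02) and fell with exercise in tumor-bearing mice (-1.36). Ppp1r3c, which targets a phosphatase to glycogen, moved the other way, with 12296, 21246, 3417 and 26578 normalized reads, and was lower with the tumor without exercise (-1.85) and higher with exercise in tumor-bearing mice (2.96). Gys1, the muscle glycogen synthase, was higher with the tumor in exercised mice (1.07).

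The lists can be set side by side by their medians. With the tumor without exercise the median log2 fold change was 2.30 over the proteases and their inhibitors, 0.51 over FoxO factors and mTORC1, 0.46 over glucose handling, 0.24 over PI3K and AKT, 0.02 over adaptors and brakes and -0.44 over the growth hormone axis, against -0.04 over all genes tested. With exercise in tumor-bearing mice these medians were -0.40, -0.17, 0.14, 0.08, -0.29 and 0.08 in the same order, against 0.01 over all genes tested. With exercise in mice without a tumor they were 0.04, 0.08, 0.14, 0.26, 0.03 and -0.29, against -0.01. Such medians hide the spread within a list. With the tumor without exercise the 6 genes of proteases and inhibitors ran from -0.46 for Htra1 to 5.68 for Stc2.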

How the data were processed

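Total RNA of mouse gastrocnemius, 1 library per group (4 in all), was sequenced after QuantSeq 3′ library preparation. According to the methods, the authors used Bowtie2 for alignment, Bedtools coverage for read counts per gene and edgeR for quantile normalization. The submitters' processing notes name mm10. The annotation, strand and duplicate handling are not given in the sources used here. Deposited log2 values hold the normalized read count, to which the authors added 1 before taking the logarithm, and include the authors' scaling.

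Whole reads were recovered by fitting 1 scaling factor per library and a dispersion of 0.339 to the steps of the deposited values. All values (100%) came out within 0.0006 log2 of a whole read count, of which 94.8% to 96.2% per library were tied to a single count. Depth was 11269903 reads for normal control and 13225567 for normal exercise, against 10647791 in cancer control and 11026582 in cancer exercise, with fitted scaling factors of 0.94, 1.23, 0.93 and 0.92. Symbols were used as deposited, and 79 rows shared one with another row. Positions are from GENCODE M21 on GRCm38, which is mm10.

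Groups came from sample titles. Fold changes are differences of deposited log2 values, called at 2-fold with a normalized read count of 4 in at least 1 library. The study words its threshold so, but does not say whether the 4 is on the linear scale, as taken here, or on the log2 scale of the deposited values, where it is a minimum of 16. Counting intervals are 95% Clopper-Pearson intervals of the reads, except that the difference of the exercise effects has a normal approximation. The floor of a 0 count is 3 reads. The sources name no molecular identifiers, and neither intervals nor floors cover more than counting error. Named pathway genes were up to 4 per list with the largest fold change among genes reaching 16 normalized reads. For Igf1, Igfbp1 and Igfbp5 the 5 genes closest in pattern were named. Further genes are named as list members or for a contrast (Jak2, Stat5a, Slc2a4, the marker genes, genes without reads), chosen after their values were seen. The members and gene lists were chosen with earlier results of these data known. Alternatives were other scalings (total count, TMM, median of ratios), pseudocounts of 0 and 4, minimum read counts and fold thresholds. Scripts were tested on simulated data and ran in Python 3.11.15 with NumPy 2.4.6, pandas 2.3.3, SciPy 1.17.1 and Matplotlib 3.10.9.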

Additional observations from a re-analysis of the deposited data

Results flagged for a closer look

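For 3 members exercise moved the libraries in opposite directions with and without a tumor, lower without and higher with it. The difference between the exercise effects, with a tumor minus without, was 1.73 on the log2 scale for Igf1 (-1.37 without, 0.36 with), 0.99 for Irs1 (-0.44 and 0.55) and 1.06 for Igfbp5 (-0.55 and 0.51). Of these effects that of Igf1 without a tumor alone reached 2-fold. Each effect rests on 1 pair of libraries and the difference was not tested. The share of all genes with such opposite directions was not computed, so the count of 3 members is a description only.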

How the results depend on the processing

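With 1 library per group leaving out a library was not done, and no value tells mice from libraries. No paired analysis was possible because the labels give no replicate numbers and each group has 1 library. Depth limits Irs2 without a tumor (6 and 9 reads) and Igfbp1 outside cancer control (0 to 5 reads).

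Other scalings and pseudocounts gave 200 recomputed member fold changes, of which 185 stayed inside the counting interval and none that had been called changed sign. Of the fold changes 2 crossed 2-fold: Irs1 with the tumor in exercised mice was -1.09 under total count scaling, and Irs2 with exercise without a tumor was -1.03 with a pseudocount of 0. Total count scaling moved the median of all genes by 0.16 with exercise without a tumor and by -0.15 with the tumor in exercised mice, and there the difference of the exercise effects was 1.504 for Igf1 and 0.0307 for Igfbp4 (0.26 as reported). A library scaling acts on all genes alike, so the shifts of both exercise comparisons enter this difference.

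Members called with exercise without a tumor (1 as reported) numbered 2 with a pseudocount of 0, 3 at 1.5-fold and 0 at 4-fold, and all genes (3121) 5508 at 1.5-fold and 1437 at 4-fold. With the tumor without exercise 4 members (8) and 3178 genes (6682) were called at 4-fold. With exercise in tumor-bearing mice 1 member (3) was called at 4-fold, and 7175 genes (4437) at 1.5-fold and 2058 at 4-fold. With the tumor in exercised mice 7107 genes (4378) were called at 1.5-fold and 1951 at 4-fold. With a minimum of 16 normalized reads, which is 4 on the log2 scale, 1, 8, 3 and 4 members were called in the 4 comparisons (1, 8, 3 and 5 as reported), the one lost being Igfbp1 with the tumor in exercised mice, and 1741, 5126, 2966 and 2955 of all genes. These thresholds widen or narrow the rule by construction.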
